A study of Rattus norvegicus with 6 samples.

Results

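The Mediator complex subunit genes were taken as every gene whose array symbol is Med followed by a number, with an optional letter, or is Ccnc, Cdk8 or Cdk19. The rule found 30 genes of the 18166 measured, namely 28 Med genes, the cyclin gene Ccnc and the kinase gene Cdk19, each on a single probe set. Med7, Med18 and Cdk8 are not analysed here. The RNA came from cultured hippocampal neurons of day 18 rat embryos and was read on 6 Affymetrix arrays of 1 colour. All cultures received 10 µM FUDR, which blocks cell division and so limits glia. At 4 days in vitro they were given an adeno-associated virus with either the Ncoa3 shRNA or a control shRNA, in both cases at a titre of 1800000 IFU/ml. RNA was taken at 14 days in vitro, from 3 experiments that each gave 1 Ncoa3 shRNA array and 1 control shRNA array. Viral delivery, FUDR and the embryonic origin of the neurons were shared by both groups, and the labels name the knockdown by its target gene alone.

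Mediator is a large assembly that passes signals from factors bound at enhancers and promoters to RNA polymerase II. Its head and middle modules contact the polymerase, its tail is the main docking surface for activators, and the subunit Med14 runs through all of these as a scaffold. A separate kinase module, made of a cyclin-dependent kinase, cyclin C, Med12 and Med13 or their paralogs, binds the core reversibly and keeps the polymerase away while bound. Nuclear receptors recruit Mediator mainly through Med1, and they recruit the p160 coactivators, to which Ncoa3 belongs, through the same kind of surface. The comparison asks how the genes of this complex were expressed in neurons given the Ncoa3 shRNA.

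Ncoa3 itself was lower on all Ncoa3 shRNA arrays. Its quantile-normalized log2 signals were 7.60, 7.60 and 7.45 in experiments 1 to 3 with Ncoa3 shRNA, against 8.63, 8.72 and 8.22 with control shRNA. Its log2 difference of -0.97 ± 0.142 (SE, 3 arrays against 3) made it 1.96-fold lower, and the adjusted p in limma was 0.00747. The call was lost without experiment 1 (adjusted p = 0.134) and without experiment 2 (0.123). In the deposited values the array medians lay between 6.81 and 6.97 with Ncoa3 shRNA and between 7.08 and 7.25 with control shRNA, and the median difference over all genes was -0.25. Any pair of Ncoa3 shRNA arrays shared the exact deposited value of 8881 to 13476 of the 36685 probe sets and any pair of control arrays that of 8680 to 13979, while arrays of opposite groups shared 2 at most. The arrays of a group therefore share a processing step, and that step and the group cannot be told apart. Signals and differences below are log2 values after quantile normalization of all 6 arrays, unless called deposited, and errors are SEs from limma. All 12 neuron markers were brighter than the median gene, and their mean signal ran from 11.86 to 11.94 with Ncoa3 shRNA and from 11.95 to 12 with control shRNA. Of the markers of other cells, 6 of 7 for astrocytes, 3 of 7 for oligodendrocytes, 2 of 5 for fibroblasts and endothelium and 0 of 8 for microglia were brighter than the median gene. The mean of the fibroblast and endothelial markers ran from 8.05 to 8.32 with Ncoa3 shRNA and from 7.86 to 8.11 with control shRNA. In the same order, that of the microglia markers ran from 6.13 to 6.31 and from 6.02 to 6.09. That of the astrocyte markers ran from 9.26 to 9.79 and from 9.38 to 9.79, and that of the oligodendrocyte markers from 8.15 to 8.28 and from 8.11 to 8.21. Of these markers 1 neuron gene (Gad2, -0.42), 0 astrocyte (also at an unadjusted p under 0.05), 3 microglia (Cx3cr1 and Aif1 higher, Ptprc lower), 4 oligodendrocyte (Cnp and Pdgfra higher, Sox10 and Mog lower) and 1 fibroblast gene (Dcn, 0.52) passed limma's test between the shRNA groups. Of all genes 19.5% passed. The experiment number was also fitted as a block, where 39.3% of all genes passed. There 2 of 12 neuron, 1 of 7 astrocyte, 5 of 8 microglia, 5 of 7 oligodendrocyte and 4 of 5 fibroblast and endothelial markers passed. The part of these cells in the results was not tested. In such bulk RNA, fewer cells of a type and less RNA per cell cannot be told apart.

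Among the 30 Mediator genes, 4 rose and 2 fell with Ncoa3 shRNA. The rises were in the middle subunit gene Med10, the scaffold gene Med14 and the tail genes Med15 and Med25, and the falls were in the middle subunit gene Med21 and the kinase module gene Med12l. They spanned 1.12-fold to 1.28-fold higher and 1.21-fold to 1.24-fold lower. At an adjusted p under 0.05 in limma, 20.0% of the Mediator genes passed, where 19.5% of all genes did, so the share of changed members was near the background. For rises the shares were 13.3% of the members and 10.5% of all genes, and for falls 6.67% and 9.04%. The median difference was 0.04 over the members and 0.01 over all genes, and 20 of the 30 members (66.7%) had a difference above 0, against 51.4% of all genes. The signals of the groups did not overlap for 9 of the members (30.0%), against 40.5% of all genes. Of these, 7 lay above their control arrays, as did 21.5% of all genes, and 2 lay below, as did 19% of all genes. Without experiment 1 or without experiment 2 none of the 6 calls held, with adjusted p-values of up to 0.245 for Med10 and 0.426 for Med14. Without experiment 2 the same test called 0 of all 18166 genes in either direction (1593 higher and 1478 lower at an unadjusted p under 0.05), and without experiment 1 it called 118 higher and 105 lower. Without experiment 3 all 6 calls held, in a fit that called 4436 genes higher and 3918 lower.

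These directions are relative to the offset between the groups. In the deposited values 0 Mediator genes were higher by limma's test (2 at an unadjusted p under 0.05) and 5 were lower, with a median difference of -0.21, where 3.97% of all genes were higher and 43.3% lower (47.2% in all). Med12l and Med21 were among the 5 in the deposited values, and the others were Ccnc, Med1 and Med9. With the experiment as a block, which the labels' experiment numbers allow, 5 members rose and 4 fell after quantile normalization. That is 30.0% of the members, where 39.3% of all genes passed with the block, 20.8% as higher and 18.6% as lower. With the block in the deposited values 0 members were higher (1 at an unadjusted p under 0.05) and 15 lower, where 60.2% of all genes passed, 4.33% as higher and 55.9% as lower.

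**Figure D1:**
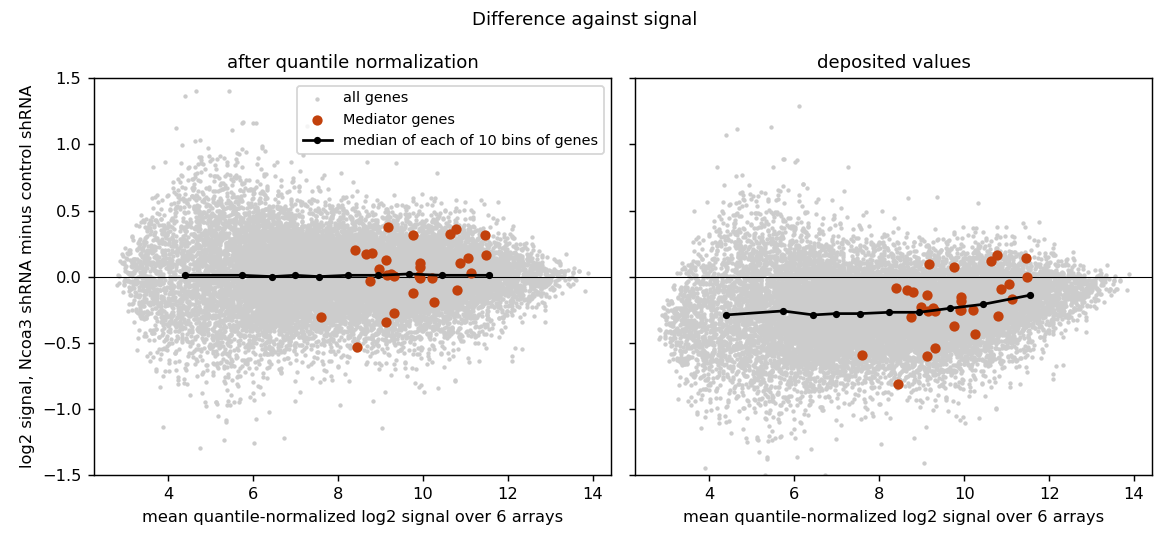
Each grey point is a gene and each orange point a Mediator gene, with the difference in log2 signal (Ncoa3 shRNA minus control shRNA, y axis) against the mean quantile-normalized log2 signal over the 6 arrays (x axis). The left panel uses quantile-normalized and the right panel deposited differences, 3 and 6 genes lie outside the y axis, and the black line, the median of each of 10 bins of genes, runs between -0.29 and -0.14 in the deposited values and between 0.00 and 0.02 after normalization.

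**Figure D2:**
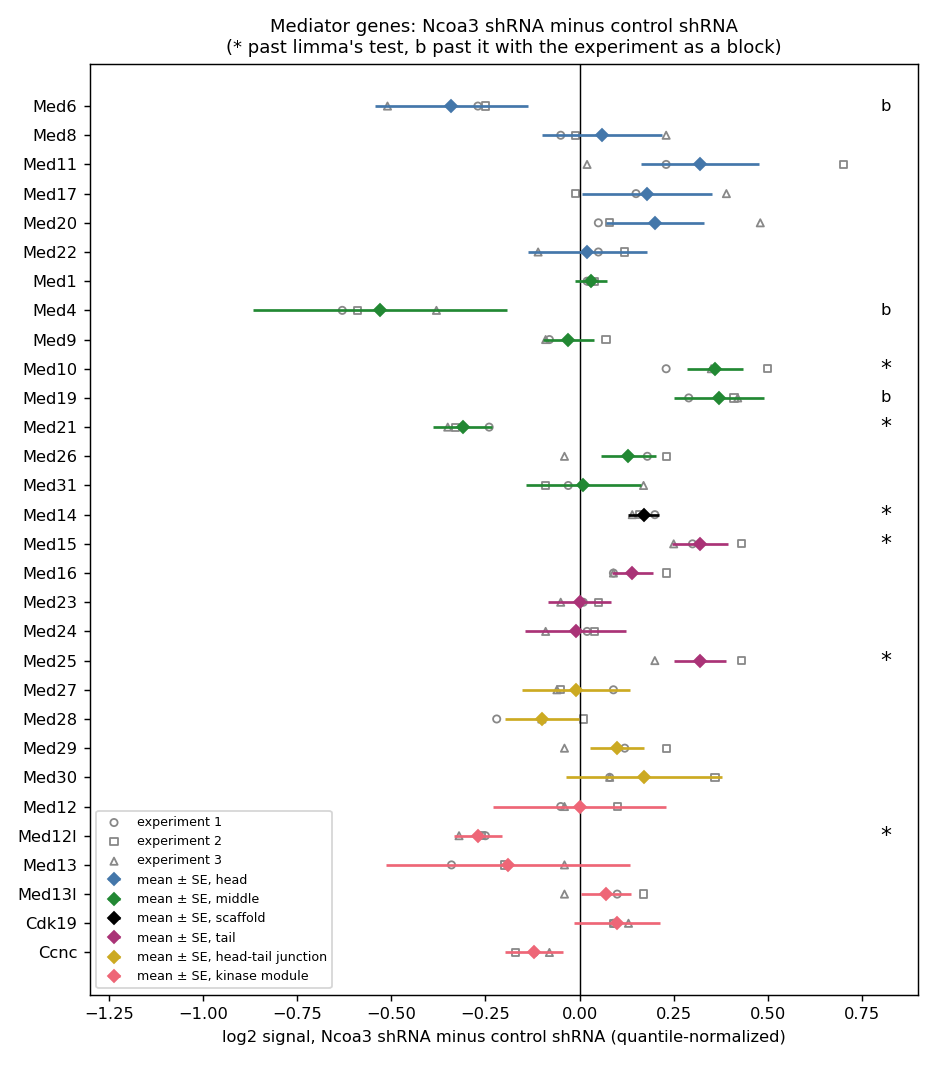
Diamonds give the difference in quantile-normalized log2 signal (Ncoa3 shRNA minus control shRNA) of each Mediator gene with its SE from limma, coloured by module, and open symbols give the difference in each experiment. A star marks the 6 genes with an adjusted p under 0.05 in limma, and a b marks Med4, Med6 and Med19, which passed only with the experiment as a block.

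The middle module held the largest rise and the largest fall among the members that passed. Med10, a small middle subunit conserved from yeast to mammals, had signals of 10.93, 11.06 and 10.88 with Ncoa3 shRNA in experiments 1 to 3, against 10.69, 10.56 and 10.53 with control shRNA. Every Ncoa3 shRNA array lay above every control array. Med10 rose by 0.36 ± 0.0745, or 1.28-fold (limma's adjusted p = 0.0224), with differences of 0.23, 0.50 and 0.35 by experiment, while its deposited difference of 0.16 did not pass (0.229). Med21, a middle subunit that in yeast pairs with Med7 at the hinge of the module, had 7.55, 7.46 and 7.33 with Ncoa3 shRNA, against 7.79, 7.79 and 7.68 with control shRNA. All its Ncoa3 shRNA arrays lay below the control arrays, and it fell by 0.31 on the log2 scale (SE 0.0779, 1.24-fold lower, limma's adjusted p = 0.0407). In the deposited values its difference was -0.59 (limma's adjusted p = 9.58e-05). There it had the same value in Ncoa3 shRNA experiments 2 and 3 and in control experiments 1 and 2. Such repeats may make its SE too small. Of the members that passed, only Med10 had no repeated deposited value within a group. Of the 30 members Med21 was the only one dimmer than the median gene.

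The promoters of these subunit genes are shown because Med10 and Med21 had the largest rise and the largest fall past the test within the same module. The sequences are the 250 bases before the gene's annotated start in RefSeq (rat assembly GRCr8), 5′ to 3′ on the strand of the gene, with the capitals marking 2 searched motifs on either strand. The motifs were AGGTCA, the half-site that many nuclear receptors bind, and CCGGAAG, a core bound by ETS factors. The Med10 window lies at chr1:35304155-35304404 on the minus strand and the Med21 window at chr4:181291024-181291273 on the plus strand.
Med10 promoter: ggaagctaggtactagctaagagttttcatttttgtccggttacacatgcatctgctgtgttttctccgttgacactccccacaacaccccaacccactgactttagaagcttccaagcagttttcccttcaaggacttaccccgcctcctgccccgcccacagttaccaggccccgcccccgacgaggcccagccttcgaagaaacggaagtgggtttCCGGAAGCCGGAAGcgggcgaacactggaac
Med21 promoter: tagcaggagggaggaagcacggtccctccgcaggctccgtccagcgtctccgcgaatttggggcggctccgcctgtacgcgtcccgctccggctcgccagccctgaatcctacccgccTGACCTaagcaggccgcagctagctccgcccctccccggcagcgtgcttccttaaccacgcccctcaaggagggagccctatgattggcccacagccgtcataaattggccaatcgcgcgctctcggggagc
The Med10 window held 2 CCGGAAG motifs in a direct, adjacent repeat starting at bases -31 and -24 from the gene's start, and no AGGTCA. The Med21 window held 1 AGGTCA on the opposite strand, at base -132, and no CCGGAAG. RefSeq windows were found for 26 of the 30 members, 27 windows in all, since Med12l has 2. AGGTCA was in 4 of the 27 (14.8%) and in 14.1% of all 33465 rat windows of this length, and CCGGAAG was in 6 (22.2%) against 7.27%. The 6 with CCGGAAG belonged to Med10, Med6, Med17, Med19, Med31 and Ccnc, and the windows of Med6 and Med17 held both motifs, which did not overlap. The median GC content was 58.0% over the members' windows and 51.2% over all windows. Genes with a match included some that rose (Med10), fell (Med21) or did not pass (Ccnc and Med31).

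Among the other 6 middle genes, Med1 is the main docking subunit for nuclear receptors. Its signals were 11.15, 11.15 and 11.12 with Ncoa3 shRNA, against 11.13, 11.12 and 11.09 with control shRNA. The groups overlapped, and the difference of 0.03 ± 0.0433 did not pass (limma's adjusted p = 0.694), with a 95% interval from -0.08 to 0.13. In the deposited values Med1 stood at -0.17 and passed as lower (adjusted p = 0.0273), a difference close to the median of the brightest of 10 bins of genes there, -0.14. Med19, a middle subunit that in yeast helps join the polymerase to the complex, was above its controls in each experiment, by 0.29, 0.41 and 0.42. Its mean difference of 0.37 ± 0.119 passed in the blocked fit (0.0107) but not without the block (adjusted p = 0.0795). Med4, which in yeast pairs with Med9, had the widest spread of signal in the middle module. It had 8.45, 8.42 and 7.68 with Ncoa3 shRNA, against 9.08, 9.01 and 8.06 with control shRNA. Both arrays of experiment 3 were the lowest of their group, and the groups overlapped only because the control array of experiment 3 lay below the Ncoa3 shRNA arrays of experiments 1 and 2. The difference of -0.53 ± 0.338 missed the test (0.329) but passed with the block (SE 0.0646, adjusted p = 0.0116). Med26, which brings in elongation factors, stood at 0.13, Med31 at 0.01 and Med9 at -0.03, and none of the 3 passed with or without the block.

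The scaffold gene Med14 rose slightly and evenly. Its signals were 11.58, 11.54 and 11.57 with Ncoa3 shRNA, against 11.38, 11.38 and 11.43 with control shRNA, so the groups did not overlap. The change was 0.17 ± 0.0418, or 1.12-fold (limma's adjusted p = 0.0395). Its deposited difference was -0.01 (adjusted p = 0.757), so Med14 was higher only relative to the genes around it, and the sign turned without normalization.

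In the tail, 2 of 5 genes rose and 0 fell, where 10.5% of all genes rose and 9.04% fell. Med15, a subunit that sterol-regulatory and other activators bind, had 10.72, 10.84 and 10.84 with Ncoa3 shRNA, against 10.42, 10.41 and 10.59 with control shRNA. It rose by 0.32 ± 0.0732, or 1.25-fold (limma's adjusted p = 0.0287). Med25, a docking subunit for ETS-family and viral activators, had 11.56, 11.66 and 11.63 with Ncoa3 shRNA, against 11.24, 11.23 and 11.43 with control shRNA, and rose by 0.32 ± 0.0688, also 1.25-fold (0.0258). For both genes every Ncoa3 shRNA array lay above every control array, the third control array was the highest of its group, and the deposited differences of 0.12 and 0.14 did not pass (0.0774 and 0.0890). The groups of Med16 did not overlap either, but its difference of 0.14 ± 0.0546 did not pass (0.136). Med23, a tail subunit used by growth factor and viral activators, stood at 0.00 ± 0.0839 and Med24 at -0.01 ± 0.134. No tail gene passed as lower, also at an unadjusted p under 0.05 (0 genes).

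Of the 6 head genes measured, 0 passed limma's test, where 19.5% of all genes did. At an unadjusted p under 0.05 the count was also 0, where 3257 of all 18166 genes were higher and 2854 lower. The median SD of the head genes was 0.203 with Ncoa3 shRNA and 0.237 with control shRNA. Over all genes these SDs were 0.0891 and 0.0886, so the lack of calls does not show that the head genes were unchanged. The differences of the head genes ran from -0.34 to 0.32 with a median of 0.12. Med11, which with Med22 forms a pair that in yeast touches the general factor TFIIH, had the highest value at 0.32 ± 0.157, made of 0.23, 0.70 and 0.02 by experiment. Med6, which links the head to the middle, had the lowest at -0.34 ± 0.202, made of -0.27, -0.25 and -0.51, and passed in the blocked fit (adjusted p = 0.0328). Med17, the central subunit of the head, stood at 0.18 ± 0.173 and Med20 at 0.20 ± 0.130. Med20 was above its controls by 0.05, 0.08 and 0.48, so experiment 3 gave most of its mean. Med8 stood at 0.06 and Med22 at 0.02. The 4 genes of subunits at the junction of head and tail, Med27 to Med30, ranged from -0.10 for Med28 to 0.17 for Med30. Of these 0 passed, also at an unadjusted p under 0.05, where 19.5% of all genes passed and 3257 were higher and 2854 lower at that unadjusted p. Their median SDs, 0.173 with Ncoa3 shRNA and 0.165 with control shRNA, were also above those of all genes.

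In the kinase module, 1 of 6 genes fell and 0 rose (0 at an unadjusted p under 0.05), where 9.04% of all genes fell and 10.5% rose. Med12l, the paralog of Med12, had 9.16, 9.15 and 9.20 with Ncoa3 shRNA, against 9.41, 9.41 and 9.51 with control shRNA. All 3 Ncoa3 shRNA arrays were below the controls, and the gene fell by 0.27 on the log2 scale (SE 0.0636, 1.21-fold lower, limma's adjusted p = 0.0314). Its deposited difference was -0.54 (2.62e-05), with values repeated on 2 arrays of each group. Med12, which switches on the kinase through cyclin C, showed no such shift. It had 9.41, 9.61 and 8.90 with Ncoa3 shRNA, against 9.46, 9.51 and 8.95 with control shRNA, a difference of 0.00 ± 0.230 (adjusted p = 0.998). Whether the paralogs differ in response was not tested.

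Med13, the subunit that tethers the kinase module to the core, had the widest spread of the module. It had 10.06, 9.70 and 10.74 with Ncoa3 shRNA, against 10.40, 9.90 and 10.78 with control shRNA. Its difference was -0.19 ± 0.325 (adjusted p = 0.729), made of -0.34, -0.20 and -0.04 by experiment, and its 95% interval ran from -0.98 to 0.60. Its paralog Med13l stood at 0.07 ± 0.0673. Cdk19, the kinase paralog of Cdk8, had 10.06, 10.06 and 9.81 with Ncoa3 shRNA, against 9.98, 9.97 and 9.69 with control shRNA, a difference of 0.10 ± 0.115 (adjusted p = 0.589). Ccnc, which encodes the module's cyclin, had 9.75, 9.59 and 9.79 with Ncoa3 shRNA, against 9.86, 9.76 and 9.87 with control shRNA, a difference of -0.12 ± 0.0771 (0.325). The groups of Cdk19 and of Ccnc overlapped, though within each experiment Cdk19 was higher and Ccnc lower with Ncoa3 shRNA.

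**Figure D3:**
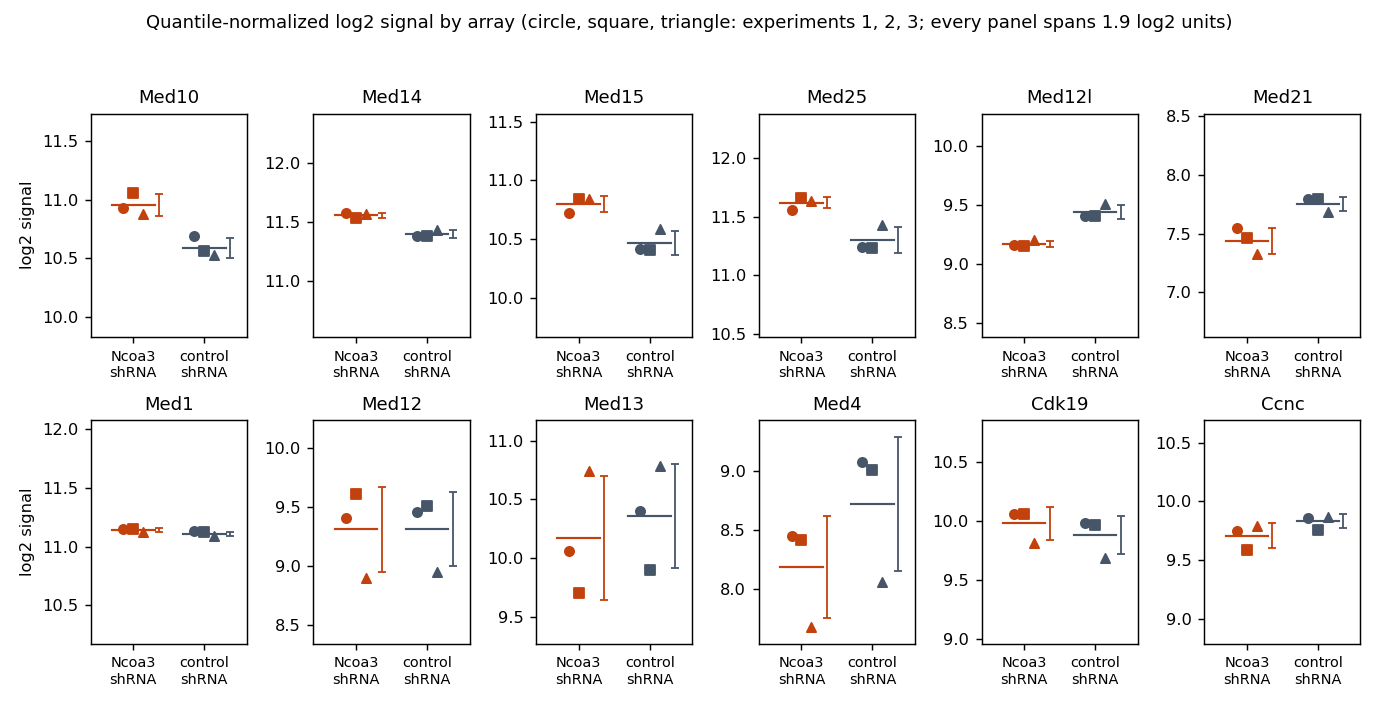
Quantile-normalized log2 signal (y axis, each panel spanning 1.9 units at its own position) of 12 Mediator genes on each array, with the group mean as a line and the SD (n = 3) as a bar. The groups do not overlap in the first 6 panels, while Med12, Med13, Med4 and Cdk19 differ more between experiments than between groups.

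The spread between experiments was wider than the knockdown difference for several members. Experiment 3 was set against the mean of experiments 1 and 2 in a model with the shRNA group, which rests on 2 arrays per experiment. It was picked because earlier results of these same data set it apart, so its p-values are not those of a contrast chosen beforehand. By limma's test 12 of 30 members (40.0%) differed, 1 higher and 11 lower, where 37.1% of all genes differed, 6.91% higher and 30.2% lower. In the deposited values 0 members were higher (1 at an unadjusted p under 0.05) and 7 lower, where 3.75% of all genes were higher and 7.59% lower. The median over members was -0.18 after normalization and -0.25 in the deposited values, against -0.08 and 0.00 over all genes. The signal was the lowest in experiment 3 in both groups for 18 members (60.0%), against 51.1% of all genes.

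Med4 was the furthest down in experiment 3, at a difference of -0.87 ± 0.0685 (limma's adjusted p = 0.0164). Med12 stood at -0.57 ± 0.0514 (0.0184), Med30 at -0.50 ± 0.0810 (0.0240) and Med6 at -0.48 ± 0.0739 (0.0225). Med13 was the member that was higher, by 0.75 ± 0.0767 (0.0201), so the partner subunits Med12 and Med13 stood on opposite sides in the third experiment with either shRNA. The deposited difference of Med13 was 0.67 and just missed the test (0.0585), and that of Med30 was -0.51 (0.0718), while Med4, Med6 and Med12 passed there too (adjusted p = 0.0469, 0.0482 and 0.0296). The mean signal of the 7 astrocyte markers was also higher in experiment 3. It was 9.79 with Ncoa3 shRNA, against 9.26 to 9.43 in the other experiments, and 9.79 with control shRNA, against 9.38 to 9.50. Of these markers 6 of 7 passed as higher in experiment 3, against 1 of 7 in the deposited values (6 of 7 at an unadjusted p under 0.05). Their median difference was 0.41 after normalization and 0.33 in the deposited values. The mean of the 5 fibroblast and endothelial markers was 8.32 in experiment 3 with Ncoa3 shRNA, against 8.05 to 8.10 in the other experiments, and 8.11 with control shRNA, against 7.86 to 7.95. Of these, 3 passed as higher and 2 as lower in experiment 3, against 1 and 0 in the deposited values. For the 8 microglia markers, all dimmer than the median gene, the mean was 6.31 in experiment 3 with Ncoa3 shRNA, against 6.13 to 6.19. With control shRNA it was 6.09, against 6.02 to 6.04, and 2 of the 8 passed as higher and 2 as lower. The mean of the 12 neuron markers was 11.94 with Ncoa3 shRNA, against 11.86 to 11.88, and 11.95 with control shRNA, against 11.95 to 12. Of these, 0 passed as higher (3 at an unadjusted p under 0.05) and 1 as lower. For the 7 oligodendrocyte markers it was 8.24, against 8.15 to 8.28, and 8.21, against 8.11 to 8.14. Of these, 2 passed as higher and 1 as lower. The part of these cells in the shifts of the Mediator genes was not tested. With any 1 of the 4 arrays of experiments 1 and 2 left out, 0 members and 0 of all genes passed for experiment 3 (1 to 2 members higher and 9 to 15 lower at an unadjusted p under 0.05).

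**Figure D4:**
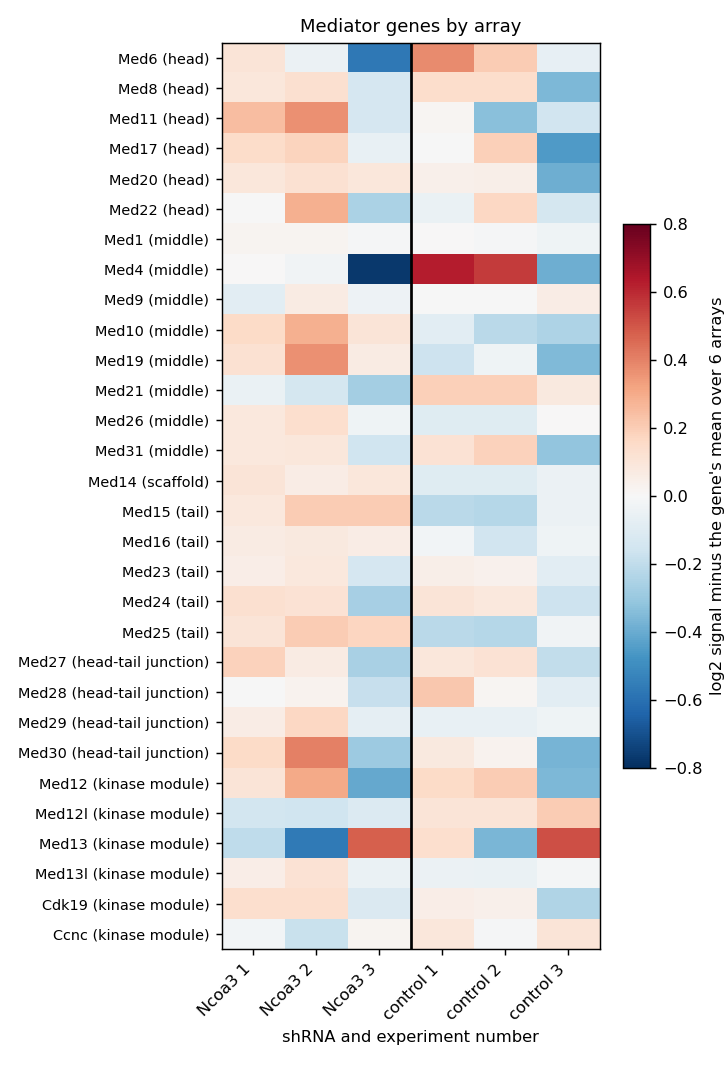
Quantile-normalized log2 signal of each Mediator gene (rows, by module) on each array (columns) minus the gene's mean over the 6 arrays, with red above and blue below it and the colour scale ending at 0.8 on either side. Med4, Med12 and Med30 are blue and Med13 is red in the columns of experiment 3, with Ncoa3 shRNA as with control shRNA. Med6 is blue there with Ncoa3 shRNA but near white with control shRNA.

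Other genes of transcription by RNA polymerase II were counted by the same test. Of 10 polymerase subunit genes 1 rose and 0 fell, also at an unadjusted p under 0.05 for falls (0 genes). The gene that rose was Polr2d, the subunit that pairs with Polr2g in the stalk, at 0.38 ± 0.0726 (limma's adjusted p = 0.0174). It had 10.01, 9.98 and 9.86 with Ncoa3 shRNA, against 9.62, 9.60 and 9.49 with control shRNA. Of 27 general initiation factor genes 0 rose (2 at an unadjusted p under 0.05) and 1 fell, which was Ccnh, the cyclin of the TFIIH kinase, at -0.25 ± 0.0638 (0.0407). Of 25 elongation factor genes 1 rose and 2 fell. Supt4h1, a subunit of the pausing factor DSIF, rose by 0.19 (0.0406). Paf1, the name-giving subunit of the Paf1 complex, and the elongation factor gene Tcea1 stood at -0.26 (0.0358) and -0.24 (0.0360). Tcea1 was read on the brighter of its 2 probe sets. With the mean of each gene's probe sets, 1 of the named genes outside Mediator lost its call. The median differences of these lists were 0.18 for the polymerase, -0.06 for the initiation factors and -0.07 for the elongation factors. With the experiment as a block the counts were 3 higher and 0 lower for the polymerase, 1 and 6 for the initiation factors and 1 and 5 for the elongation factors. Of all genes, 10.5% rose and 9.04% fell without the block, and 20.8% rose and 18.6% fell with it. Without normalization 0 genes of these lists passed as higher, also at an unadjusted p under 0.05, and 0 polymerase, 11 initiation and 12 elongation factor genes passed as lower, where 43.3% of all genes did. The deposited difference of Polr2d was 0.12, which passed in the blocked fit (0.0204) but not without the block (adjusted p = 0.386).

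Cohesin and its loader hold enhancers and promoters together with Mediator. They were listed here with the regulators Pds5a, Pds5b, Wapl and Ctcf, and 10 of the 11 listed genes were measured. All 10 had a difference below 0, with a median of -0.26. Of all genes, 51.4% were above 0 and the median was 0.01. Of the 10 listed genes 2 fell and 0 rose (0 at an unadjusted p under 0.05). With the block 4 fell, where 18.6% of all genes did. Smc3, a core cohesin subunit, had 8.79, 8.65 and 8.95 with Ncoa3 shRNA, against 9.49, 9.50 and 9.35 with control shRNA. It fell by 0.65 on the log2 scale (SE 0.0973, 1.57-fold lower, limma's adjusted p = 0.00796), and Stag1, another subunit, stood at -0.32 ± 0.0798 (0.0390). The groups did not overlap for either gene. With arrays or an experiment left out, Smc3 passed in 7 of 9 fits (highest adjusted p = 0.171), and Polr2d, Ccnh, Supt4h1, Paf1, Tcea1 and Stag1 in 1 to 3. The share that passed was 20.0% of the genes of this list, where 19.5% of all genes passed.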

How the data were processed

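The deposited values are log2 signals of each probe set. Per the submitters' processing notes, the authors used Affymetrix Expression Console. Its version, summarisation and normalization were not given in the sources used here. Names came from GEO's annotation of the platform, which listed 19086 of 36685 probe sets, 18511 with a single symbol. For genes with several, the one with the highest mean was used, leaving 18166 genes with no filter on low signal. All 30 Mediator symbols are in the RefSeq gene table.

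All arrays were quantile-normalized together, so a real shift of most genes in the same direction would be lost. The tests were two-sided, by limma 3.58.1 under R 4.3.3, with eBayes moderation along a signal trend and Benjamini-Hochberg adjustment over all genes. The labels give a shared experiment number. Deviations from the group means correlated between arrays of an experiment at r = 0.72, 0.55 and 0.78 over genes, so the blocked fit is reported beside a result whose call it changes. Nothing says that experiments used separate litters, so p-values measure the spread between these arrays. With 3 arrays per group, their number limits the precision.

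Members, gene lists and the contrast of experiment 3 were chosen with earlier results of these data known. Per-array values are given for members past the test and for Med1, Med12, Med13, Med14, Cdk19 and Ccnc by role, and for Med4, Polr2d and Smc3 after their values were seen. Of other lists, up to 2 genes per direction with the smallest adjusted p are named. Of the 14 members with repeated deposited values, 2 (Med9 and Med26) had the same value on all 3 control arrays. Med14, Med15 and Med25 repeated on 2 control arrays, and Med12l and Med21 on 2 arrays of each group. Ncoa3, Stag1 and Tcea1 repeated on 2 Ncoa3 shRNA arrays, Ccnh on 2 arrays of each group and Supt4h1 on all 3 control arrays. Such repeats may make an SE too small. Alternatives were the deposited values, median centring, cyclic loess, no trend, genes above the median signal, the mean of a gene's probe sets, the block, and leaving out arrays or experiments. On simulated data for the shRNA comparison, with 200 of 18166 genes changed by 1 log2 unit, 93.5% were recovered and 6.97% of the calls were false. The blocked fit recovered 72.0% (2.70% false) and the comparison of experiment 3 recovered 76.5% (2.55% false). Smaller changes, such as those of the members, were not simulated. The simulated noise was independent between arrays, with no experiment effect and no repeated values. Real arrays of an experiment varied together, so these rates do not carry over to the fits of the real data.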

Additional observations from a re-analysis of the deposited data

How the results depend on the processing

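The shRNA comparison gave 4 higher and 2 lower Mediator genes by limma. These counts were 4 and 2 with cyclic loess and 3 and 2 without the trend. They were 0 and 5 in the deposited values, 1 and 0 after median centring, and 0 and 0 among genes above the median signal (6 and 1 at an unadjusted p under 0.05). With the replicate block they were 5 and 4, and 0 and 15 in the deposited values. With 1 array or experiment left out they ran from 0 to 5 higher and from 0 to 3 lower. Over all genes, 1905 were higher and 1643 lower, against 722 and 7857 in the deposited values, 1027 and 841 after median centring, 220 and 214 among genes above the median signal, and 3777 and 3370 with the block. The calls of Med10 held in 3 of the 9 such fits (highest adjusted p = 0.245), those of Med12l in 3 (0.345), and those of Med14 (0.426), Med15 (0.301), Med21 (0.369) and Med25 (0.264) in 2 each. Every one of these 6 held without experiment 3 and was lost without experiment 1 and without experiment 2. The signs of all 6 held in every fit named here, except for Med14 at -0.01 in the deposited values with and without the block. In the deposited values with the block, 5 members passed as lower whose normalized differences, from 0.00 to 0.10, did not pass. They were Cdk19 (-0.15), Med1 (-0.17, without the block too), Med12 (-0.26), Med22 (-0.24) and Med23 (-0.25). The median deposited difference over all genes was -0.25. The Ncoa3 difference ran from -1.15 to -0.86 with arrays left out and lost its call without experiment 1 (-0.92) and without experiment 2 (-0.88).

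Experiment 3 was higher for 1256 and lower for 5481 of all genes, against 682 and 1379 with deposited values and 1067 and 11961 with median centring. Its member counts of 1 higher and 11 lower were 0 and 7 in the deposited values, 1 and 27 after median centring, 1 and 6 with cyclic loess and 1 and 1 without the group term. With 1 array left out they ran from 0 to 1 and from 0 to 8, and were 0 with any 1 array of experiment 1 or 2 left out, as they were over all genes. With an array of experiment 3 left out, 1 member was higher and 8 lower. After median centring Ccnc (-0.18), Med12l (-0.17), Med14 (-0.17), Med16 (-0.20) and Med9 (-0.19) turned lower and passed. The causes were not tested.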
